A study of Mus musculus with 12 samples.

Results

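The transcription factors that commit a bone marrow progenitor to the B lineage and carry it to a mature B cell were followed in mice given cyclophosphamide, a DNA alkylating drug that damages dividing cells. The group was defined by name, as Pax5, Ebf1, Tcf3, Foxo1, Ikzf3, Pou2af1, Spib, Bach2 and Irf4, and these were 9 of the 34745 genes in the deposited table. All 9 had counts in at least 1 library of every group.

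RNA of total femoral bone marrow cells was sequenced from male mice of the outbred ICR strain, with 3 mice in each of 4 groups and 1 library per mouse. The normal group received saline only. The model group, the leucopenia model of the study, received cyclophosphamide by intraperitoneal injection at 80 mg/kg on each of days 5 to 7, with saline by mouth as the vehicle. Mice of the QJSB group had the same cyclophosphamide injections and, by mouth for 1 week, 3 g/kg per day of Qi-Jing-Sheng-Bai granule (QJSB), a herbal preparation used against low white cell counts. Those of the leucogen group had the same injections and, over the same time, 20 mg/kg per day of leucogen, a small molecule given for leucopenia and used as the positive control. Cyclophosphamide was therefore shared by the model, QJSB and leucogen groups, and no group received a drug without it. The table's own headings for the normal, leucogen and QJSB libraries were read by their meaning and by elimination.

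In the marrow, the E protein encoded by Tcf3 and the forkhead factor FOXO1 act early and turn on Ebf1. EBF1 and PAX5 then hold the B lineage programme in place, and IRF4, SPIB, IKZF3, BACH2 and the coactivator encoded by Pou2af1 act in later pre-B and mature B cells. Tcf3 and Foxo1 are also expressed in many cells outside the B lineage, whereas Pax5 and Pou2af1 are among the factors most restricted to it. In a bulk library, fewer B lineage cells and less of these RNAs per cell cannot be told apart.

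The 5 sequences shown here are the 250 bases before the RefSeq start of Pax5 and Pou2af1, which had the lowest CPM of the 9 in both drug groups, of Spib, which shares a motif with Pou2af1, and of Tcf3 and Foxo1, which kept the highest share of their normal level. They are printed 5′ to 3′ on the strand of the gene, from build GRCm38.p6, and capitals mark CG dinucleotides and, in Pou2af1 and Spib, also the letters TGCAAAT, the core of the octamer motif bound by POU factors and their coactivator encoded by Pou2af1. The Pax5 window lay at chr4:44710695-44710944 on the minus strand, Pou2af1 at chr9:51213440-51213689 on the plus strand, Spib at chr7:44532072-44532321 on the minus strand, Tcf3 at chr10:80433636-80433885 on the minus strand and Foxo1 at chr3:52268087-52268336 on the plus strand.
Pax5: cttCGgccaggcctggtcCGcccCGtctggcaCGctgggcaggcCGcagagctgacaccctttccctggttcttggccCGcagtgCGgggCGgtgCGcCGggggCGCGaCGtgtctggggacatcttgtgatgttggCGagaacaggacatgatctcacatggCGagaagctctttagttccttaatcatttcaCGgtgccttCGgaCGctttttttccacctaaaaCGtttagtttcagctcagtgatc
Pou2af1: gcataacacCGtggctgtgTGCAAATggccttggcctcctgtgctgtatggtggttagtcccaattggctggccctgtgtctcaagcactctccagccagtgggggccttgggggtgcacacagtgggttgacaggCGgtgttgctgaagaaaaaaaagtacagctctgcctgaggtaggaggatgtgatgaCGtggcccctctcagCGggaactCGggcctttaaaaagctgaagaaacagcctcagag
Spib: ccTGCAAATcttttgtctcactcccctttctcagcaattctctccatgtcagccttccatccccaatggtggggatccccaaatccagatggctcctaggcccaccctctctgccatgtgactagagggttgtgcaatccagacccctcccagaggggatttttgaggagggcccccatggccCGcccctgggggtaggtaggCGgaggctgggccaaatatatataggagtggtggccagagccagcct
Tcf3: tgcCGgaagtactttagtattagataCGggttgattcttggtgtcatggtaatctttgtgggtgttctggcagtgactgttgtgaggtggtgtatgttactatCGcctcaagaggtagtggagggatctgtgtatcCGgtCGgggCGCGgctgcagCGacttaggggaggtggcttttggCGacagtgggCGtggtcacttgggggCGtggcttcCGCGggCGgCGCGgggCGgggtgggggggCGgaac
Foxo1: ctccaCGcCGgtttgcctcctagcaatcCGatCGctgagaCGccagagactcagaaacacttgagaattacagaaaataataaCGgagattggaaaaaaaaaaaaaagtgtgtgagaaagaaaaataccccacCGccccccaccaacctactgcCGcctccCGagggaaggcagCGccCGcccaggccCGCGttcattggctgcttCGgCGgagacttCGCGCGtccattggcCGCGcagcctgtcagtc

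The windows differed in how many CG dinucleotides they held. Foxo1 had 20, Pax5 19 and Tcf3 18, while Pou2af1 had 5 and Spib 2, beside a median of 6 over the 32851 RefSeq windows of the same length. The number did not follow the size of the fall in RNA described below, since Pax5 had nearly as many as Foxo1. The letters TGCAAAT, searched on both strands, were in the Pou2af1 window from position -231 and in the Spib window from position -248, counted from the start site, and in 3.56% of all windows. This motif was chosen after the sequences had been seen. Of 4 other motifs searched on both strands without regard to overlap, CCAAT was in the windows of Bach2, Foxo1, Pou2af1 and Spib and in 33.8% of all, and TATAAA was in that of Irf4 and in 12.4% of all. The palindromic EBF consensus was in the Foxo1 window and in 0.779% of all, and the E-box CAGGTG was in none of the 9 windows of 8 members and in 17.2% of all. Ebf1 has 2 of these windows. They, and the Bach2 window at chr4:32417185-32417434, lie inside the gene positions given below and not before the first base of the gene. No window was used for Ikzf3. A match is a run of letters and not a measured binding site.

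Library totals ran from 11172547 to 18545198 counts, and levels are given below as CPM, counts scaled to the size of the library with TMM factors. The libraries of the model and QJSB groups spread more than those of the normal and leucogen groups. Replicate 1 of the model group and replicate 1 of the QJSB group stood apart from the other libraries of their groups, with more stromal and fewer late neutrophil transcripts. The summed level of 7 stromal cell markers was 494 CPM in model replicate 1 against 170.5 and 145 CPM in the other model libraries, and 573 CPM in QJSB replicate 1 against 133 and 129 CPM. The summed level of 10 late neutrophil markers was 4787 CPM in model replicate 1 against 19771 and 11898 CPM, and 7321 CPM in QJSB replicate 1 against 37710 and 27935 CPM. The fold changes and calls of the 9 members were also computed without each library in turn.

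In normal marrow the 9 genes were all well expressed, and the 3 mice were close to one another for 8 of them. Per length, as FPKM, fragments scaled by transcript length and library size, Pou2af1 was highest at 94.2 ± 2.91 (SD, n = 3), followed by Ebf1 at 46.1 ± 0.384, Spib at 36.4 ± 2.71, Irf4 at 31.2 ± 2.72, Ikzf3 at 30.1 ± 1.56 and Pax5 at 28.1 ± 0.162 FPKM. Foxo1 at 14.0 ± 0.621, Tcf3 at 11.997 ± 0.262 and Bach2 at 10.5 ± 3.49 FPKM were lowest. Bach2 was the one gene with a wide spread, as normal replicate 1 had 6.57 FPKM against 11.9 and 13.1 FPKM in the others. The libraries of neighbouring genes in this order overlapped for Spib and Irf4, for Irf4 and Ikzf3 and for Tcf3 and Bach2, so the order within these pairs was not beyond the spread.

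**Figure D1:**
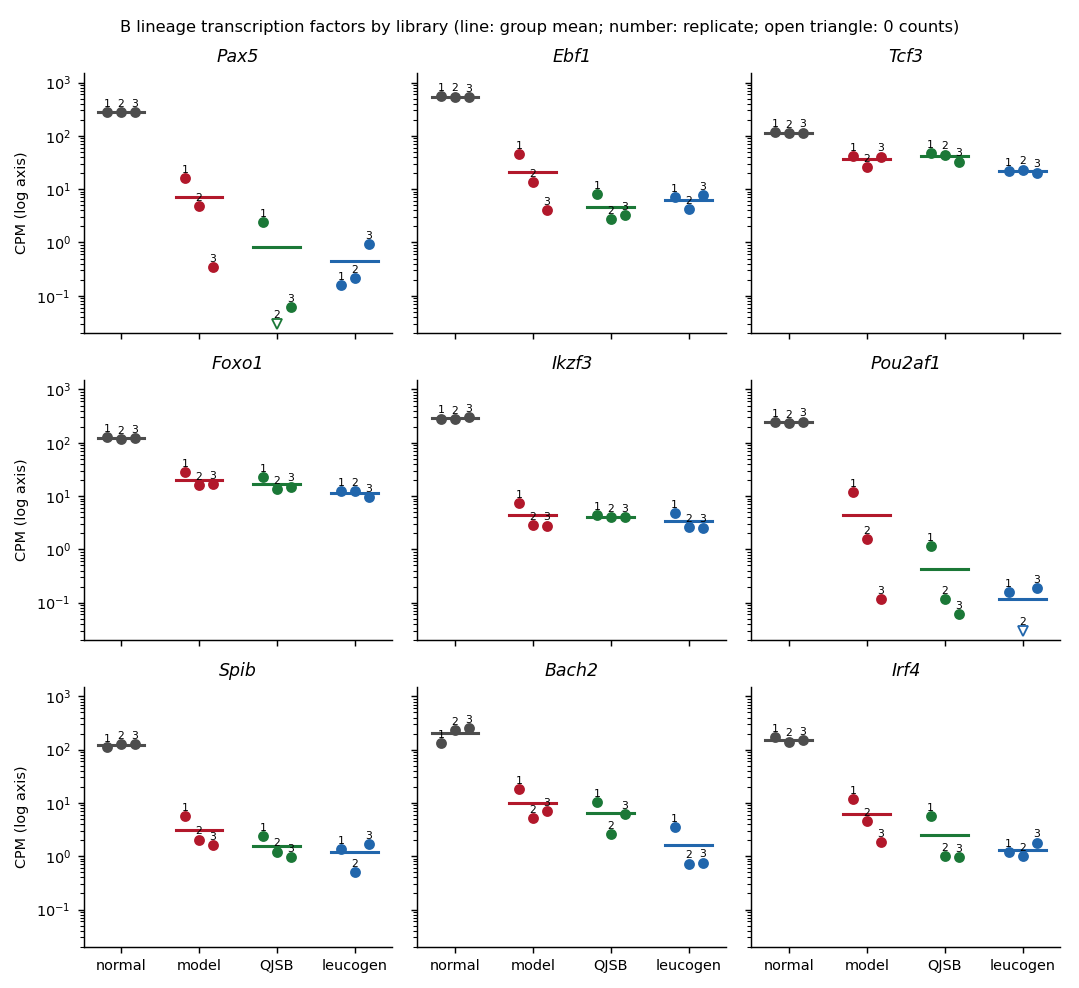
Level of each of the 9 transcription factors in every library, in CPM on a log axis, with 1 point per mouse numbered by replicate, a line at the group mean and an open triangle for a count of 0. Each normal library lies above each cyclophosphamide library for all 9 genes, the model points of Pax5 and Pou2af1 run from 16.0 to 0.350 and from 11.8 to 0.117 CPM, and Tcf3 and Foxo1 stay nearest to the normal level.

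All 9 genes fell in the model group compared with the normal group. A gene was called changed when it differed by over 1.5-fold with an adjusted p under 0.05 in the quasi-likelihood test of edgeR, adjusted over all genes tested by the Benjamini-Hochberg method. By this rule 9 of 9 were lower, beside 19.0% of the 14752 genes tested, and the median log2 fold change of the 9 was -4.72 beside 0.02 over all genes. Scaled by total counts instead of TMM, the calls over all genes turned from 2368 higher and 2803 lower to 3024 higher and 2346 lower, and the 9 members stayed lower. The 3 model libraries lay below the 3 normal libraries for all 9 genes, beside 27.9% of all genes. With 3 mice against 3, an exact permutation test of a single gene could not give a p below 0.1, so the calls rest on the fit across all genes.

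Tcf3 (chr10:80409514-80433647) encodes the E proteins E12 and E47, which pair with other helix-loop-helix proteins and start the B lineage programme. It had 116, 112 and 116 CPM in the normal libraries and 41.8, 26.4 and 41.0 CPM in the model libraries. All model libraries were lower than all normal libraries, and the model group kept 31.8% of the normal mean, the highest share among the 9 genes. The log2 fold change was -1.67 (SE 0.18, adjusted p = 0.000216 by edgeR's quasi-likelihood test).

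Foxo1 (chr3:52268336-52353221) encodes a forkhead factor that drives Il7r and the recombination genes in early B cells. Its levels were 129, 117 and 122 CPM in the normal group and 27.9, 16.3 and 16.7 CPM in the model group, where replicate 1 was highest. The model group kept 16.6% of the normal mean, and the log2 fold change was -2.60 (SE 0.22, edgeR adjusted p = 6.92e-05). In GENCODE M21 a gene model on the opposite strand overlaps Foxo1, and the same holds for Pax5, Ebf1 and Bach2. The libraries were strand-specific, but whether the counting used strand is not given in the sources used here, so reads of such partners may be included.

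Ebf1 (chr11:44617317-45008091), the early B cell factor that opens B lineage chromatin, went from 558, 545 and 540 CPM in the normal libraries to 45.1, 13.4 and 4.09 CPM in the model libraries. The model libraries differed among themselves by 11.0-fold, far more than the normal libraries, and replicate 1 was again the highest. Ebf1 had a log2 fold change of -4.72 (SE 0.88, edgeR adjusted p = 0.00801).

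Pax5 (chr4:44524757-44710487), which holds B cell identity by repressing the genes of other lineages, had 285, 279 and 275 CPM in the normal libraries. In the model libraries it had 16.0, 4.74 and 0.350 CPM, from 277, 67 and 6 counts. The highest model library was 45.7 times the lowest, and yet lay far below every normal library. Pax5 had a log2 fold change of -5.31 (SE 1.06, edgeR adjusted p = 0.0103).

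Pou2af1 (chr9:51213690-51240079) encodes OCA-B, a coactivator that joins octamer-binding factors at immunoglobulin and other B cell promoters. Its levels were 247, 238 and 249 CPM in the normal group and 11.8, 1.56 and 0.117 CPM in the model group, from 204, 22 and 2 counts. No other member differed as much among the model libraries, at 101-fold between replicates 1 and 3. Its log2 fold change was -5.76 (SE 1.17, edgeR adjusted p = 0.0111). Pou2af1 and Pax5 were the members with the largest standard errors, 1.17 and 1.06.

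The remaining 4 factors act mostly in pre-B and mature B cells, and their log2 fold changes, from -6.06 to -4.38, lay around those of Ebf1 and Pax5. Ikzf3 (chr11:98464902-98546031) encodes Aiolos, a zinc finger factor of late pre-B and mature B cells. It went from 284, 281 and 303 CPM in the normal libraries to 7.28, 2.90 and 2.80 CPM in the model libraries, with a log2 fold change of -6.06 (SE 0.39, edgeR adjusted p = 4.48e-05). The fall was one of the more even ones across the 3 mice, since the highest model library was 2.60 times the lowest.

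Spib (chr7:44525993-44532071), an Ets factor of B cells and plasmacytoid dendritic cells, had 112, 126 and 126 CPM in the normal group and 5.72, 2.05 and 1.63 CPM in the model group. Its log2 fold change was -5.26 (SE 0.45, edgeR adjusted p = 0.000168). Because Spib is also used by plasmacytoid dendritic cells, the 7 markers of these cells are given beside it. Their summed level ran from 219 to 269.6 CPM in the normal group and from 154 to 263 CPM in the model group, 0 were at 0 in every library of either group, and 2 of the 7 fell, Ccr9 (log2 fold change -2.02) and Klk1 (-3.56). Tcf4 at -0.34 and Siglech at -0.22 were not called. Most of the sum came from Tcf4 and Runx2, with normal means of 136 and 74.5 CPM, beside 11.7 CPM for Siglech. The sum therefore says little about the other markers. The part of these cells in the fall of Spib was not tested.

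Bach2 (chr4:32238804-32586108), a repressor that delays plasma cell differentiation and acts at the pre-B cell checkpoint, had 131, 236 and 256 CPM in the normal group and 17.9, 5.17 and 7.003 CPM in the model group. For Bach2 the log2 fold change was -4.38 (SE 0.54, edgeR adjusted p = 0.00115). Irf4 (chr13:30749226-30766927), which acts in light chain rearrangement and later in plasma cells, had 169, 142 and 149 CPM in the normal group and 11.8, 4.60 and 1.81 CPM in the model group. Its log2 fold change was -4.66 (SE 0.63, edgeR adjusted p = 0.00184). For both genes replicate 1 of the model group was the highest of its group, as it was for all 9 members.

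The share of the normal level that was left differed between the factors. Ikzf3 kept 1.495% of its normal mean, Pou2af1 1.83%, Pax5 2.51%, Spib 2.59%, Ebf1 3.81%, Irf4 3.97% and Bach2 4.82%, while Foxo1 and Tcf3 kept 16.6% and 31.8%. The spread among the model mice was also unequal. The ratio of the highest to the lowest model library was 1.58 for Tcf3 and 1.71 for Foxo1, lay between 2.60 and 6.55 for Ikzf3, Bach2, Spib and Irf4, and was 11.0 or more for Ebf1, Pax5 and Pou2af1. In model replicate 1, 7 pre-B cell markers summed to 209 CPM, beside 72.5 and 25.3 CPM in replicates 2 and 3, and 8 erythroid markers summed to 591 CPM beside 101 and 74.3 CPM. Their part in the spread of the factors was not tested. All 9 members were called lower in each fit that left out 1 library. Without model replicate 1 the log2 fold changes were larger, at -8.27 for Pou2af1, -6.83 for Pax5, -6.66 for Ikzf3, -6.04 for Spib, -5.98 for Ebf1, -5.60 for Irf4 and -5.09 for Bach2, and without model replicate 3 that of Pou2af1 was -5.17.

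**Figure D2:**
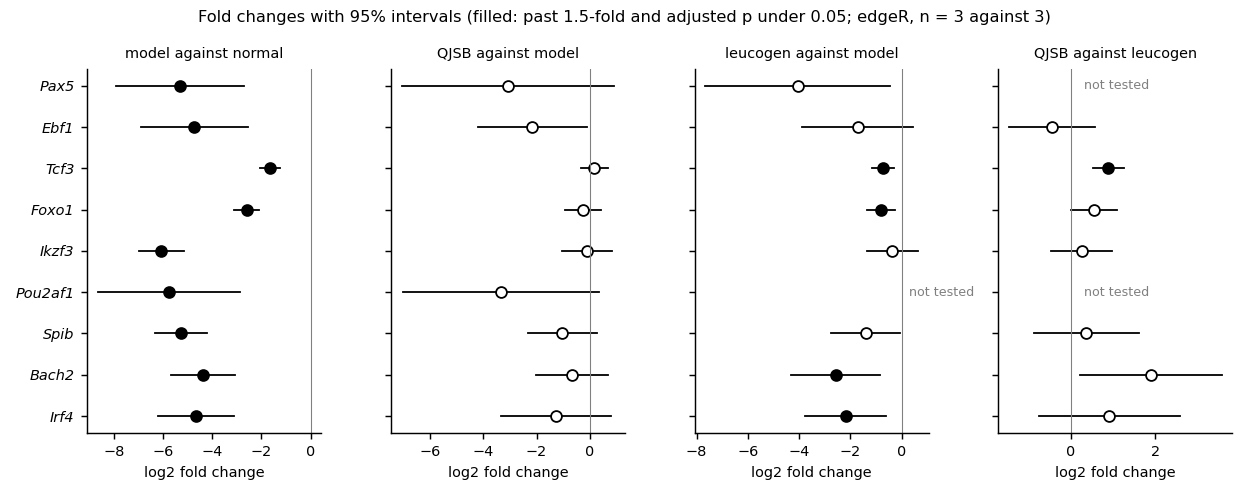
Log2 fold change of each factor with its 95% interval in 4 comparisons of 3 mice against 3, with filled points for genes past 1.5-fold with an adjusted p under 0.05. All 9 points are filled and below 0 for model against normal, none is filled for QJSB against model, Tcf3, Foxo1, Bach2 and Irf4 are filled and below 0 for leucogen against model, and Tcf3 alone is filled for QJSB against leucogen.

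The makeup of the transcription factor RNA differed between the normal and the cyclophosphamide libraries. Tcf3 and Foxo1 together were 8.89%, 8.40% and 8.47% of the summed FPKM of the 9 genes in the normal libraries. They were 32.4%, 51.7% and 76.3% in the model libraries, 64.0%, 81.6% and 77.3% in the QJSB libraries and 64.9%, 78.7% and 61.9% in the leucogen libraries. Every cyclophosphamide library was above every normal library, and among them model replicate 1 was nearest to normal. Pou2af1 was 30.7% to 31.5% of the sum in normal marrow, 19.5%, 6.71% and 0.553% in the model libraries and at most 3.72% in any QJSB or leucogen library. The sum itself ranged from 298 to 311 FPKM in the normal group, from 8.33 to 26.5 in the model group, from 6.61 to 12.8 in the QJSB group and from 4.63 to 5.76 in the leucogen group.

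**Figure D3:**
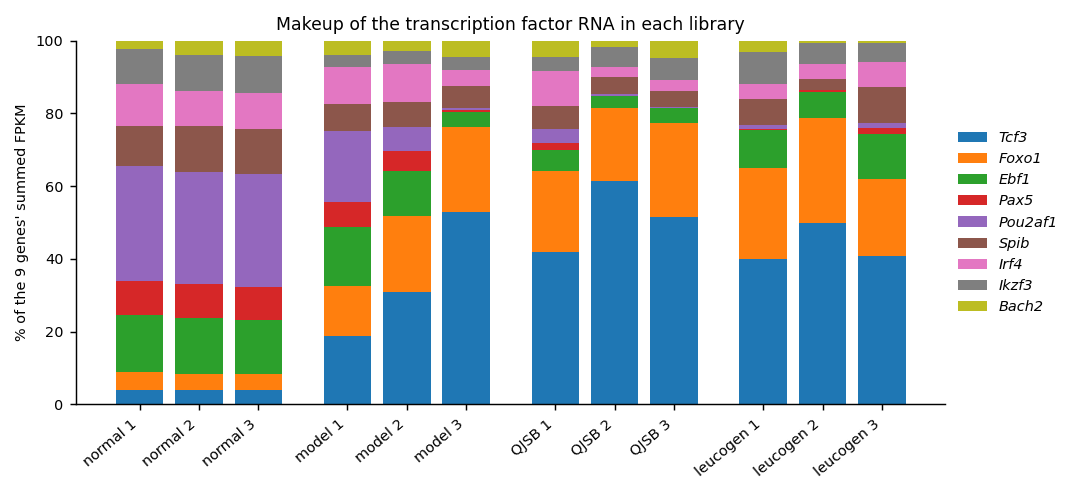
Share of each of the 9 genes in their summed FPKM, in percent, with 1 stacked bar per library. Tcf3 and Foxo1, the bottom segments, make up 8.40% to 8.89% of the bars of the normal libraries and 32.4% to 81.6% of those of the cyclophosphamide libraries.

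The members were next compared with 18 relatives and partners, genes of the same families or the octamer-binding factors with which the Pou2af1 product works. Of the 14 relatives tested in the model group against the normal group, 2 rose, beside 16.1% of all genes, and 8 fell, beside 19.0%. Their median log2 fold change was -0.69. Ebf3 at 1.08 (SE 0.28) and Spi1 at 0.89 (SE 0.19) rose, with edgeR adjusted p = 0.0145 and 0.00646. Spi1 encodes PU.1, the Ets factor of myeloid and lymphoid progenitors and a relative of SPIB. Ebf3 was at a low level, with means of 2.29 CPM in the normal and 4.90 CPM in the model group.

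Within families, some relatives lay far from the value of the B lineage factor, and others fell as well. Ikzf1, which encodes Ikaros and is used across the blood lineages, had a log2 fold change of -0.39 and was not called, with an edgeR adjusted p of 0.0502, beside -6.06 for Ikzf3. Bach1 at 0.08 and Irf8 at 0.10 were not called, beside -4.38 for Bach2 and -4.66 for Irf4. The E protein gene Tcf12 fell by 1.08 and Tcf4 at -0.34 was not called, beside -1.67 for Tcf3. Foxo3 at -1.84 and Foxo4 at -1.58 fell, as did the octamer factor genes Pou2f1 at -0.62 and Pou2f2 at -1.67, Ikzf2 at -0.95, Ikzf5 at -0.77 and Spic at -1.07. With total counts as the scaling, Ikzf2, Spic and Pou2f1 were no longer called. The difference between a member and its relative was not tested. Ebf2, Ebf4, Foxo6 and Ikzf4 were too low to be tested.

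Other regulators used by B lymphoid cells were a mixed group. Of 15 tested, 10 fell and 0 rose in the model group against the normal group, with a median log2 fold change of -1.08. DESeq2 also called 10 lower and 0 higher, and at an unadjusted p under 0.05 edgeR had 11 lower and 1 higher. Of the 4 with the highest mean CPM, Bcl11a at -1.08 and Foxp1 at -0.95, which are both needed for early B cell development, fell. Myb at 0.20 and Runx1 at 0.0028, which are used by progenitors of several lineages, were not called. Among 5 regulators that oppose E proteins or act in plasma cells, Xbp1 rose by 1.75 and Id1 by 0.76 on the log2 scale, Id3 fell by 2.67, and Id2 at 0.36 and Prdm1 at -0.06 were not called. Id3 is an inhibitor of E proteins that is itself expressed in B lineage cells.

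Genes that these factors are known to activate fell with them. Of 18 target genes, 17 were tested and 15 were lower in the model group, with a median log2 fold change of -4.34. The signalling gene Cd79b had -4.41, the recombinase gene Rag1 had -3.74 and Il7r, the receptor that early B cells need for interleukin 7, had -3.58. The surrogate light chain genes Igll1 at -2.22 and Vpreb2 at -2.01 were not called. Among marker lists for stages, 5 of 7 pre-B genes fell with a median of -3.14, and 7 of 7 mature B genes fell with a median of -8.79. Several of the pre-B genes are also in the target list. Of 6 plasma cell markers tested, 1 rose and 3 fell.

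Lists for other cells show what else moved in the same libraries. In the model group against the normal group, 8 of 8 erythroid markers fell, with a median log2 fold change of -5.50 beside -4.72 for the 9 members. Of T cell markers 5 of 7 fell (median -2.85), and of NK cell markers 1 of 7 rose and 5 fell (median -1.88). Of conventional dendritic cell markers 1 of 5 tested rose and 3 fell (median -1.76), and 4 of 10 late neutrophil markers fell (median -1.17). For endothelial cells 1 of 5 markers rose. For stromal cells edgeR called 0 of 7, with 1 at an unadjusted p under 0.05, and DESeq2 called 1 lower. The summed level of the mature B markers ran from 578 to 699 CPM in the normal group and from 2.62 to 8.49 CPM in the model group. The part of each cell type in the levels of the 9 factors was not tested.

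**Figure D4:**
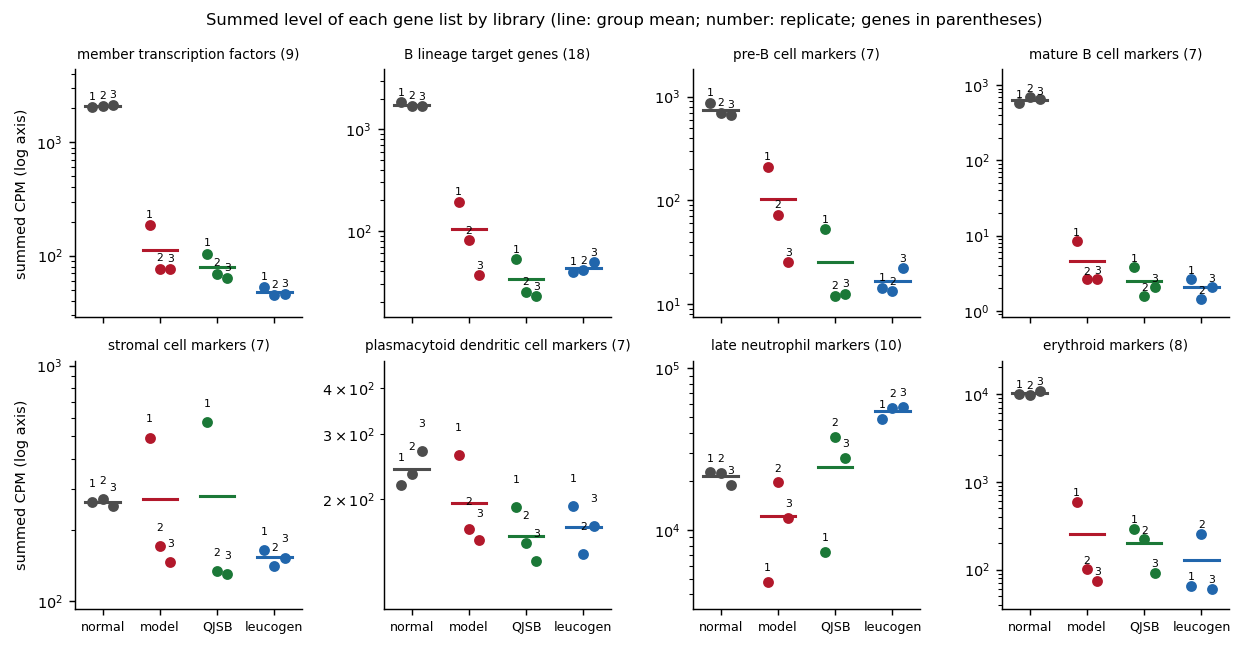
Summed CPM, on log axes with their own ranges, of the 9 factors, their target genes and markers of 6 cell types in every library, with a line at the group mean and points numbered by replicate. The 9 factors sum to between 2032 and 2136 CPM in the normal libraries and between 45.0 and 185 CPM in the cyclophosphamide libraries, and model replicate 1 and QJSB replicate 1 lie apart for the stromal and neutrophil lists.

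The QJSB group was then compared with the model group, which asks whether the preparation moved the factors away from their level after cyclophosphamide. By edgeR's adjusted p, 0 of the 9 members were called, beside 0 of all 14486 genes tested, so this count does not set the members apart. DESeq2 also called 0 members, beside 8 of 21744 genes. At the looser cutoff of the published analysis, an unadjusted P under 0.05 with the same fold change, 1 of 9 was lower, beside 1.40% of all genes, and it was Ebf1. Its QJSB levels were 8.15, 2.74 and 3.24 CPM against 45.1, 13.4 and 4.09 CPM in the model group, so the groups overlapped. Ebf1 had a log2 fold change of -2.16 (95% interval -4.20 to -0.13, unadjusted P = 0.0402 and adjusted p = 0.767 by edgeR). For 0 of 9 genes did the 3 QJSB libraries lie below all 3 model libraries, beside 5.40% of all genes. Taken by replicate number, a comparison added after seeing the data, 7 of 9 members were lower in the QJSB library of all 3 pairs, beside 15.6% of all genes, and 0 were higher in all 3. Tcf3 and Ikzf3 were mixed. The numbers are not known to be pairs, and replicate 1 was the highest library of both groups for all 9 members. Members also correlated with one another over the cyclophosphamide libraries (median r 0.694), so the 7 are not separate results. No member was past the looser cutoff in the higher direction.

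The intervals were wide for the factors that varied most among the model mice. Pax5 had 2.43, 0 and 0.0612 CPM in the QJSB libraries, from 45, 0 and 1 counts, and a log2 fold change of -3.07 with an interval from -7.07 to 0.92. Its count of 0 in QJSB replicate 2 allows up to 3 counts at that depth, for counting error alone. For Pou2af1, with 1.13, 0.117 and 0.0612 CPM from 21, 2 and 1 counts, the log2 fold change was -3.33 with an interval from -7.03 to 0.33. QJSB replicate 1 was the highest library of its group for both genes, and for all 9. The check of the replicate numbers, described under the processing, cannot tell pairs from replicate 1 standing apart in both groups. When the number entered the fit as a block, Pou2af1 was called lower, with a log2 fold change of -3.27 and an edgeR adjusted p of 0.0397. That was 1 member with the block beside 0 without it. Over all 14486 genes the block gave 14 higher and 4 lower, beside 0 called without it. With replicate 1 of both groups left out, a choice made after seeing the data, 7 members were tested and 0 called, beside 23 of 14399 genes. Ebf1 then had -1.58 (edgeR adjusted p = 0.329), while Pou2af1 and Pax5 were too low to be tested.

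Irf4 at -1.27 (-3.35 to 0.80), Spib at -1.04 (-2.34 to 0.26) and Bach2 at -0.68 (-2.04 to 0.68) had log2 fold changes below 0 and intervals that held 0. The narrowest intervals were those of Foxo1, -0.26 (-0.93 to 0.40), and Tcf3, 0.17 (-0.35 to 0.68), and Ikzf3 had -0.11 (-1.03 to 0.82). Tcf3 had 46.9, 44.5 and 33.0 CPM in the QJSB group, within or just above the model range. For Tcf3 and Foxo1 a log2 change of 1 in either direction lay outside the interval, while for Pax5 and Pou2af1 a fall of that size lay inside it. Of the target genes 12 were tested and edgeR and DESeq2 called 0, with 5 lower at an unadjusted p under 0.05 and a median log2 fold change of -1.43 beside -0.02 over all genes. Of 14 relatives tested edgeR and DESeq2 called 0, with 0 at an unadjusted p under 0.05 and a median of -0.07. Of 15 other B lymphoid regulators edgeR called 0 and DESeq2 called 1 higher. At an unadjusted p under 0.05 edgeR had 3 higher and 0 lower, while 7 had log2 fold changes above 0 and 8 below. Among them Ets1, named after its values were seen, had 73.8, 61.7 and 49.3 CPM in the QJSB libraries against 27.6, 31.1 and 32.1 CPM in the model libraries. Late neutrophil markers, summed, ran from 7321 to 37710 CPM in the QJSB group and from 4787 to 19771 CPM in the model group, and their part in these values was not tested.

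In the leucogen group the factors were lower again than in the model group for some genes. The comparison shares its model libraries with the one above, so the pair are not independent. Of 9 members 8 were tested, since Pou2af1 was too low, and 4 were called lower, beside 11.5% of all genes, and 0 higher, beside 11.6%. DESeq2 called 6 lower, beside 1726 of 21089 genes. The looser cutoff gave 6 lower, beside 15.6%. Scaled by total counts, the calls over all genes turned from 1640 higher and 1635 lower to 1150 higher and 2655 lower, and 4 members were again called lower. The 3 leucogen libraries lay below the 3 model libraries for 4 genes, Tcf3, Foxo1, Bach2 and Irf4, beside 24.1% of all genes. The median log2 fold change of the 8 was -1.56 beside -0.05 over all genes.

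Tcf3 had 21.8, 23.3 and 20.5 CPM in the leucogen libraries, against 41.8, 26.4 and 41.0 CPM in the model libraries. The log2 fold change was -0.72 (SE 0.19, edgeR adjusted p = 0.0255). Foxo1 had 12.4, 12.4 and 9.69 CPM against 27.9, 16.3 and 16.7 CPM, with a log2 fold change of -0.80 (SE 0.25, edgeR adjusted p = 0.0396). Both early factors were more even among the leucogen mice than among the model mice. Bach2 had 3.49, 0.725 and 0.760 CPM against 17.9, 5.17 and 7.003 CPM, with a log2 fold change of -2.57 (SE 0.74, edgeR adjusted p = 0.0407). For Irf4 the levels were 1.19, 1.02 and 1.80 CPM against 11.8, 4.60 and 1.81 CPM, so the closest libraries of the groups nearly touched, and the log2 fold change was -2.18 (SE 0.68, edgeR adjusted p = 0.0470).

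Pax5, with 0.158, 0.218 and 0.950 CPM from 2, 3 and 10 counts, had a log2 fold change of -4.04 (95% interval -7.66 to -0.47, edgeR adjusted p = 0.0899), and Spib had -1.40 (-2.77 to -0.05, edgeR adjusted p = 0.110). These passed the looser cutoff only. Ebf1 at -1.72 (-3.87 to 0.44) and Ikzf3 at -0.36 (-1.37 to 0.64) passed neither. Pou2af1 had 2, 0 and 2 counts in the leucogen libraries, at or under 3 counts per library, against 204, 22 and 2 in the model group. The 4 calls depended on single libraries. Without model replicate 1, leucogen replicate 2 or leucogen replicate 3, 0 members were called, without leucogen replicate 1 there was 1, and without model replicate 3 there were 5. Bach2 ran from -3.72 without leucogen replicate 1 to -1.83 without model replicate 1, and Irf4 was -1.24 without the latter. Late neutrophil markers summed to between 48632 and 57825 CPM in the leucogen group, above every model library, and 7 of 10 rose, and their part in the fall of the factors was not tested.

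Target genes were mostly lower under leucogen, while other regulators were called in both directions. Of 14 relatives tested edgeR and DESeq2 called 0, with 0 at an unadjusted p under 0.05 and a median log2 fold change of -0.04. Among 14 other B lymphoid regulators tested, of which those called are named here after their values were seen, Ets1 at 1.67, Bcl6 at 1.12, Hhex at 0.65 and Runx1 at 0.61 rose, and Aff3 fell by 1.26, although Runx1 and Hhex were not called with total counts as the scaling. Of 11 target genes tested, 10 had log2 fold changes below 0, with a median of -1.26. By edgeR Cd79b at -1.27 and Ciita at -1.05 fell and Bank1 at 1.42 rose, at an unadjusted p under 0.05 edgeR had 6 lower and 1 higher, and DESeq2 called 8 lower and 1 higher. Ciita is the coactivator of MHC class II genes, and Bank1 encodes an adaptor of B cell receptor signalling. All 9 members were still far below normal in both drug groups.

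Against the normal group, 9 of 9 members were lower in the QJSB group, beside 19.9% of all genes, and 9 of 9 in the leucogen group, beside 19.8%. The median log2 fold change of the 9 was -6.15 and -6.69. These comparisons share the normal libraries with that of the model group. Tcf3 kept 36.1% of its normal mean in the QJSB group and 19.1% in the leucogen group, and Foxo1 kept 14.0% and 9.38%. The other 7 factors kept between 0.179% and 3.06% in the QJSB group and between 0.0475% and 1.15% in the leucogen group, with Pou2af1 at the low end of both.

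The drug groups were also compared directly, with QJSB as the numerator. Of the 7 members with enough counts, 1 was called higher under QJSB, beside 12.9% of all genes, so the count is near that share. The gene was Tcf3. Its QJSB libraries had 46.9, 44.5 and 33.0 CPM and its leucogen libraries 21.8, 23.3 and 20.5 CPM, with no overlap. The log2 fold change was 0.89 (SE 0.16, 95% interval 0.51 to 1.26, edgeR adjusted p = 0.00657). For Foxo1 the libraries also did not overlap, with 22.9, 13.3 and 15.1 CPM against 12.4, 12.4 and 9.69 CPM, and the log2 fold change of 0.54 (SE 0.24) was not called (edgeR adjusted p = 0.121). The share of all genes without overlap was not computed for this comparison.

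Bach2 had 10.3, 2.62 and 6.12 CPM under QJSB and 3.49, 0.725 and 0.760 CPM under leucogen, with a log2 fold change of 1.89 (95% interval 0.22 to 3.57). It passed the looser cutoff and not the adjusted one (edgeR adjusted p = 0.0853). Its libraries overlapped, since leucogen replicate 1 lay above QJSB replicate 2. Irf4 at 0.91 (-0.77 to 2.59), Spib at 0.36 (-0.87 to 1.60), Ikzf3 at 0.26 (-0.47 to 0.98) and Ebf1 at -0.45 (-1.47 to 0.56) were not called. Pax5 and Pou2af1 were too low in both groups to be tested.

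Within the 9 cyclophosphamide libraries, Pearson's r of log2 CPM for the 36 pairs of members ran from 0.0405 to 0.967 with a median of 0.694. The libraries share their groups and their depth differs, so these are descriptions. Over all 12 libraries and 12952 genes, the gene most like Ebf1 was Il7r (r = 0.997), which was also at rank 3 for Pax5 (r = 0.987), after Dpp4 (r = 0.990) and Irf4 (r = 0.988). Pou2af1 and Irf4 were each other's most similar gene (r = 0.993). For Spib it was Cd79b (r = 0.993), for Ikzf3 it was Il2ra (r = 0.996) and for Bach2 it was Slc9a7 (r = 0.993). Foxo1 was nearest to Cnp (r = 0.997), which is not in the B lineage lists. Each r spans the gap between the normal libraries and the rest. Within the 9 cyclophosphamide libraries the same pairs had r = 0.975 for Ebf1 and Il7r, 0.963 for Pou2af1 and Irf4, 0.899 for Spib and Cd79b, 0.918 for Ikzf3 and Il2ra, 0.981 for Bach2 and Slc9a7, and 0.984 for Foxo1 and Cnp.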

How the data were processed

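The authors sequenced rRNA-depleted, strand-specific libraries of femoral marrow RNA from 12 mice on an Illumina HiSeq, used Seqtk to filter the reads and Hisat2 to align them to GRCm38 (mm10 in the submitters' processing notes). The program and annotation used for counting are not given in the sources used here. The deposited table holds, for each library, the authors' whole-number read count per gene, without normalization, and the authors' FPKM, scaled by transcript length and the total of mapped fragments. There were 0 unused columns of sample values. The headings Blank, Positive and Stilbene were read as normal, leucogen and QJSB. This reading was checked against the mean normalized counts in the study's supplement, where 300 of 300 genes in each of 3 comparisons were within 1% under this reading, and at most 10 under any other, so the groups rest in part on values.

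Counts were tested in R 4.3.3 with edgeR 4.0.16 (TMM, filterByExpr, robust glmQLFit, glmQLFTest), each comparison in a fit of the 6 libraries compared, with a prior count of 2 for log2 values. A call needed a change of over 1.5-fold and a Benjamini-Hochberg adjusted p under 0.05, and a looser cutoff, that of the study, used the unadjusted P. Intervals are 95% intervals of the fit. The genes named are all members, their relatives, and per list the 4 genes with the highest mean CPM. Other genes of the lists, named where few were called or not called, were chosen after their values were seen. The 3 genes most like each member by Pearson's r of log2 CPM were also sought, of which the first, and for Pax5 all, are named. Some genes that these rules name are not reported here. The script was tested on simulated data with known changes. The simulation used a fixed spread between replicates and changed no genes with low counts. It therefore does not show how the fits do for members with few counts or a wide spread. The members and the lists were chosen with earlier results of these data known. Alternatives used DESeq2 1.42.0, its size factors, total counts, no filter, a minimum of 10 counts in every library, all 12 libraries in 1 fit, a replicate block, limma 3.58.1 on log2(FPKM + 0.1) and log2(FPKM + 1), and fits without each library. Replicate libraries differed by more than counting noise (chi-square per degree of freedom 10.2 to 99.6). Depth limits only counting error.

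Replicate numbers were taken from the sample titles. Deviations of same-numbered QJSB and model libraries from their group means correlated over 15310 genes at 0.426, 0.122 and 0.107. All 3 passed a bar of 0.1, although no source names a shared batch. The main fit did not use the numbers, and the replicate block was an alternative only. Deviations from the mean of 3 libraries sum to 0. Replicate 1 standing apart in both groups can therefore by itself raise the other correlations. Libraries of unlike number were not compared, so the check cannot tell pairs from this. In the other comparisons at least 1 of the 3 correlations was below 0.1. Promoter windows are from RefSeq (GRCm38.p6), where 8 of 9 members matched by symbol, and gene positions are those of the deposited table.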

Additional observations from a re-analysis of the deposited data

Results flagged for a closer look

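Tcf3 differed between the drug groups, in a direct test of the difference between their changes from the model group. The log2 fold change of QJSB against leucogen was 0.89 (SE 0.16, edgeR adjusted p = 0.00657), and each of the 3 QJSB libraries, at 33.0 to 46.9 CPM, was above each of the 3 leucogen libraries, at 20.5 to 23.3 CPM. Under the alternatives the log2 fold change ran from 0.72 to 1.02 and the adjusted p from 0.000191 to 0.0440. As 1 of 7 members tested, beside 12.9% of all genes called higher, Tcf3 is a result for a single gene and not for the members as a set.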

How the results depend on the processing

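For the comparisons with the normal group, the 9 members were called in each fit that left out a library. When every library had to have 10 counts or more, 7 members were tested and called in the model and QJSB groups and 5 in the leucogen group. With the replicate block, model against normal had 7, as Pax5 and Pou2af1 reached edgeR adjusted p of 0.0503 and 0.0506. Those numbers did not pass the check of pairs. For QJSB against model the block gave 1 member called in place of 0, beside 18 in place of 0 over all 14486 genes. Leaving out single libraries gave 0 members called. Without replicate 1 of both groups, chosen after seeing the data, Pou2af1 was not tested, so the 0 of 7 called there does not bear on its call with the block. Some log2 fold changes near 0 turned sign in that comparison. Over the fits without single libraries Tcf3 ran from -0.012 (without model replicate 2) to 0.31, and with model replicate 1 left out Foxo1, Ikzf3 and Bach2 reached the upper ends of ranges from -0.53 to 0.036, from -0.34 to 0.50 and from -1.22 to 0.047. Ikzf3 was 0.028 with the block and 0.45 without replicate 1 of both groups. For leucogen against model the 4 calls became 6 with DESeq2, 2 with no filter, 2 with the replicate block, and 2 and 1 with limma on log2(FPKM + 0.1) and log2(FPKM + 1). They ranged from 0 to 5 without single libraries, and Ikzf3 from -0.72 to 0.26, its value without model replicate 1. For QJSB against leucogen the 1 call became 2 with DESeq2 and 2 with the block, through Bach2, and ranged from 1 to 2 without single libraries. Spib ran from -0.13 (without QJSB replicate 1) to 0.72, with -0.023 without leucogen replicate 2, and Irf4 from -0.46 (without QJSB replicate 1) to 1.31. Other scalings changed no count of members by more than 1.5 times, although total counts moved the median of all genes from 0.02 to 0.14 in model against normal and from -0.05 to -0.22 in leucogen against model. Other causes of these changes were not tested. Counts of 10 or fewer in at least 1 library limit Pax5 and Pou2af1 after cyclophosphamide, and Spib and Bach2 in the leucogen group.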
